A study of Arabidopsis thaliana with 4 samples.

Results

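ROF2 (AT5G48570) and HOP3 (Hop3, AT4G12400) are cochaperone genes of Arabidopsis thaliana that are known to be induced by heat, a treatment that is not part of this series. They were named for this description with earlier results of these data known, for their role and their probe sets with signal on all 4 arrays, and each is read by 1 probe set that the array annotation assigns to a single gene, 248657_at for ROF2 and 254839_at for HOP3. These are 2 of the 13286 genes with such a named probe set, in a table of 22746 probe sets. Affymetrix arrays were hybridised with total RNA from seedlings 3 weeks old in the Col-0 background, 1 array for each of 4 groups. The groups were erf6-1 mutants after 2 h of high light at 2000 µmol per m2 per s, untreated erf6-1 mutants, wild-type plants after the same high light, and untreated wild-type plants. The mutated gene of erf6-1 encodes the ethylene response factor ERF6, which was not analysed here, so the genotype labels were not checked against it. How many plants entered a sample, and the temperature during treatment, are not given in the sources used here. With 1 array in each group no difference below carries a p-value or a standard error, and every statement describes these 4 arrays.

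Heat shock protein 90 (HSP90) and heat shock protein 70 (HSP70) are ATP-driven chaperones whose work cycle is steered by cochaperones. ROF2, also called FKBP65, belongs to the FK506-binding proteins, a family of peptidyl-prolyl isomerases, and carries tetratricopeptide repeats, the module with which many cochaperones hold HSP90. Together with its close relative ROF1 it is known to act on HSP90 and the heat shock factor HSFA2 during heat acclimation. HOP3 is 1 of 3 Arabidopsis HSP70-HSP90 organising proteins, which also carry tetratricopeptide repeats and link both chaperones, and it is known for roles in thermotolerance and in the stress response of the endoplasmic reticulum. High light can stress leaves through excess excitation and through heating, and heat shock genes are widely used as markers of such stress.

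The ROF2 probe set gave MAS5 signals of 14524 in light-treated erf6-1, 9365 in untreated erf6-1, 14334 in the light-treated wild type and 12442 in the untreated wild type. MAS5 signals are linear intensities of 1 probe set, and they are compared here between arrays only, not between genes. Both light-treated arrays were highest and nearly equal, and the untreated erf6-1 array was lowest, at 64.5% of the highest. The HOP3 probe set gave 3938 in light-treated erf6-1, 1323 in untreated erf6-1, 3033 in the light-treated wild type and 2983 in the untreated wild type. Both wild-type arrays were nearly equal for HOP3, and the untreated erf6-1 array again stood lowest, at 33.6% of the highest. The order of the arrays was thus the same for both genes, but whether neighbours in that order differ beyond biological spread cannot be said without replicates.

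**Figure D1:**
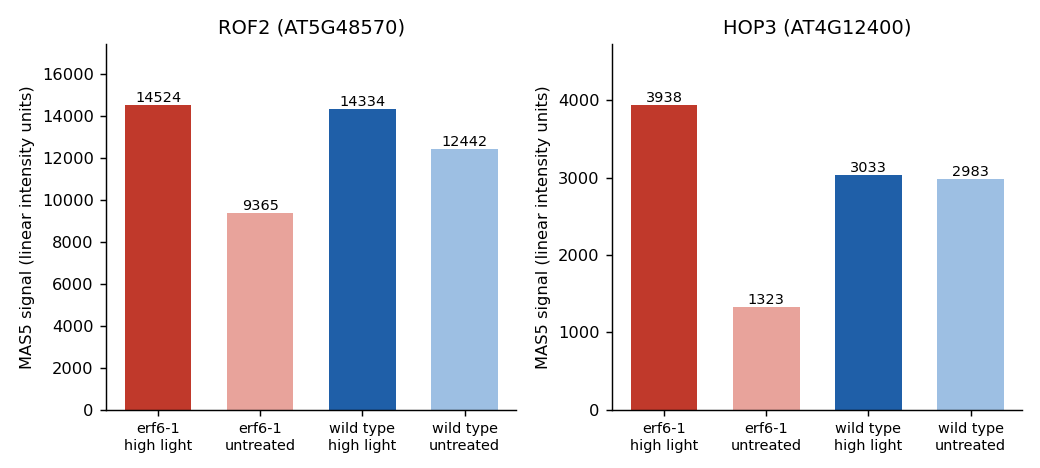
MAS5 signal (linear intensity units) of ROF2 and HOP3, 1 bar for each array, with no error bars because each group had 1 array. The untreated erf6-1 bar is the lowest for both genes, at 9365 for ROF2 and 1323 for HOP3.

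All 8 of these signals lay far above the floor of 100 to which dim values were raised before taking logarithms. Both genes were bright, meaning that their mean log2 signal reached that of a signal of 588, the upper quartile of all values. A difference of at least 2-fold between arrays was used as the call. Calls were counted over the 17173 probe sets whose highest array reached the overall median of 248.6, termed measured, and separately over the 4964 bright ones among them. Median signals were 206.6 in light-treated erf6-1, 320.6 in untreated erf6-1, 208 in the light-treated wild type and 279 in the untreated wild type, so the scaling between arrays bears on every light response.

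In erf6-1, HOP3 was 2.98-fold higher in the light-treated array, a log2 difference of 1.57, and ROF2 was 1.55-fold higher, a log2 difference of 0.63. HOP3 passed the 2-fold call and ROF2 did not. The share of measured probe sets called higher in this comparison was 16.7%, and among bright ones it was 17.4%. A log2 difference as high as that of HOP3 was found for 379 bright probe sets, or 7.63%, and one as high as that of ROF2 for 1415, or 28.5%. The median over all measured probe sets was -0.22 as deposited, so HOP3 stood 1.80 and ROF2 0.85 above it. With quantile normalisation, which gives all arrays 1 distribution, that median was 0, and HOP3 was at 1.25 and ROF2 at 0.32. With all array medians set equal the median was 0.33, HOP3 was at 2.21, and ROF2 was at 1.27 and past the call.

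In the wild type neither gene reached 2-fold. ROF2 was 1.15-fold higher in the light-treated array, a log2 difference of 0.20, and HOP3 had a log2 difference of 0.02. Measured probe sets called higher made up 14.3% here, and bright ones 14%. Among bright probe sets 43.5% had a value at or above that of ROF2 and 52.6% at or above that of HOP3, so both genes lay near the middle. The sign of the HOP3 value followed the scaling, at -0.28 with quantile normalisation and 0.45 with equal medians, whereas ROF2 stayed positive at 0.19 and 0.63. The median over all measured probe sets was -0.13 as deposited, 0 with quantile normalisation and 0.17 with equal medians.

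**Figure D2:**
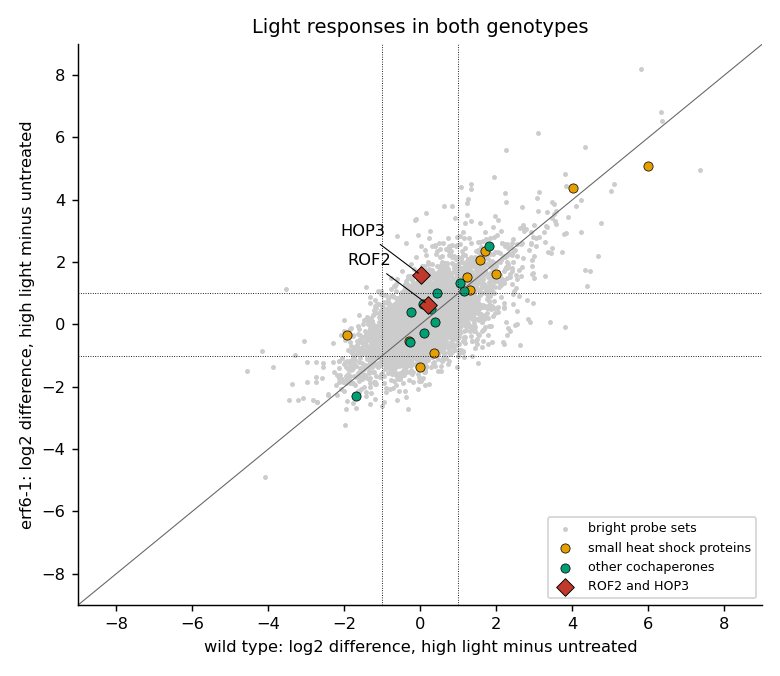
Log2 difference between the high-light and the untreated array in erf6-1 (vertical axis) and in the wild type (horizontal axis), for 4964 bright probe sets (grey), the measured small heat shock proteins and cochaperones, and ROF2 and HOP3 (diamonds). Dotted lines mark 2-fold and the solid line marks equal responses; HOP3 lies at 1.57 in erf6-1 and 0.02 in the wild type, and ROF2 at 0.63 and 0.20.

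After high light the genotypes were close for both genes. ROF2 differed by a log2 value of 0.02 between erf6-1 and the wild type, near the median of bright probe sets, 0.01. HOP3 had a log2 difference of 0.38, higher in erf6-1, and 18.5% of bright probe sets had a value at or above it. Calls in this comparison covered 6.61% of measured probe sets on the higher side and 6.99% on the lower side. Quantile normalisation and equal medians left the HOP3 value at 0.38 and 0.39.

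Without treatment HOP3 was 2.25-fold lower in erf6-1, a log2 difference of -1.17, and ROF2 was 1.33-fold lower, a log2 difference of -0.41. HOP3 passed the call on the lower side, where 19.6% of all measured and 7.74% of bright probe sets lay. A value as low as that of HOP3 was seen for 232 bright probe sets, or 4.67%, and one as low as that of ROF2 for 1483, or 29.9%. HOP3 remained past the call with quantile normalisation, at -1.15, and with equal medians, at -1.37. For ROF2 these values were -0.13 and -0.61. Over the whole table, the light-treated arrays of both genotypes were at least 2-fold apart in either direction for 13.6% of measured and 3.22% of bright probe sets, against 43.3% of measured and 12.9% of bright ones for the untreated arrays.

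The response of erf6-1 exceeded that of the wild type by 1.55 on the log2 scale for HOP3 and by 0.43 for ROF2. This quantity is the genotype difference after high light minus the one without treatment, so for HOP3 it is 0.38 after high light minus -1.17 untreated, and for ROF2 it is 0.02 minus -0.41. For both genes the larger share therefore came from the untreated pair of arrays. Measured probe sets at least 2-fold higher by this measure made up 21.7%, and bright ones 9.59%. Among bright probe sets 133, or 2.68%, had a value at or above that of HOP3, and 30.6% one at or above that of ROF2. The HOP3 value was 1.53 with quantile normalisation and 1.76 with equal medians, and the ROF2 value 0.13 and 0.64. As this measure adds the errors of 4 arrays, it is the least precise of those given.

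The combination of calls seen for HOP3 was then counted over the table, after its values were known. It comprised a 2-fold higher signal after high light in erf6-1, less than 2-fold in the wild type, 2-fold lower in untreated erf6-1, and less than 2-fold between the genotypes after high light. It was met by 906 measured probe sets, or 5.28%, and by 146 bright ones, or 2.94%. All of these conditions except the wild-type response and the light-treated pair use the untreated erf6-1 array. Of the 47 listed chaperone, cochaperone and stress genes with a named probe set 2 met it, a share near that of measured probe sets. They were HOP3, from whose values the combination was taken, and AT4G19830, an FKBP-type isomerase.

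The other 2 organising proteins did not show the HOP3 pattern. HOP2 (Hop2, AT1G62740) gave 2594 in light-treated erf6-1, 1228 in untreated erf6-1, 2061 in the light-treated wild type and 930.5 in the untreated wild type. It was thus 2.11-fold higher after high light in erf6-1 and 2.21-fold higher in the wild type, and the responses differed by only -0.07 on the log2 scale. HOP1 (Hop1, AT1G12270) gave 689 in light-treated erf6-1, 839 in untreated erf6-1, 714.5 in the light-treated wild type and 669 in the untreated wild type, with no pair 2-fold apart. As deposited, HOP2 passed the light call in both genotypes, HOP3 in erf6-1 alone and HOP1 in neither. With quantile normalisation HOP2 was under the call, at 0.81 in erf6-1 and 0.98 in the wild type. With equal medians HOP2 passed it in both, at 1.71 in erf6-1 and 1.57 in the wild type. HOP3 kept its call in erf6-1 under both other scalings.

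Of 33 genes listed as cochaperones of HSP90 and HSP70, 14 had a named probe set and 13 were measured, ROF2 and HOP3 among them. In erf6-1, 4 of the 13 were at least 2-fold higher after high light, against 16.7% of measured probe sets, and 1 was lower, against 29.8%, with a median log2 difference of 0.63, which is the ROF2 value itself. In the wild type 3 were higher, against 14.3%, and 1 lower, against 23.9%, with a median of 0.20, again the ROF2 value. The medians of all measured probe sets were -0.22 in erf6-1 and -0.13 in the wild type, and the list median was positive in both genotypes under quantile normalisation and equal medians too. The counts moved with scaling. With quantile normalisation 2 were higher and 2 lower in erf6-1, and 1 higher and 1 lower in the wild type. Equal medians gave 9 higher and 1 lower in erf6-1, and 3 higher and 1 lower in the wild type. The counts over all measured probe sets moved too. In erf6-1, 2873 were higher as deposited, 3693 with quantile normalisation and 5098 with equal medians, and 5122, 3609 and 2881 were lower. In the wild type these counts were 2455, 3154 and 4007 higher, and 4103, 3085 and 2591 lower. Leaving out ROF2 and HOP3, the other 11 had medians of 0.51 in erf6-1 and 0.28 in the wild type.

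The genes higher in both genotypes beside HOP2 were of the DnaJ type, which deliver clients to HSP70. AT4G28480 had log2 differences of 2.50 in erf6-1 and 1.81 in the wild type, and AT2G20560 had 1.33 in erf6-1 and 1.04 in the wild type. With quantile normalisation AT2G20560 was under the call, at 0.98 in erf6-1 and 0.79 in the wild type. ERDJ3B (AT3G62600), also of the DnaJ type, was not called as deposited, at -0.58 in erf6-1 and -0.28 in the wild type. With quantile normalisation it passed the call on the lower side in erf6-1, at -1.01, and with equal medians it was at 0.06 there. Called lower as deposited was BOB2 (AT4G27890), a NudC-domain protein, at -2.31 in erf6-1 and -1.69 in the wild type. FES1A (Fes1A, AT3G09350), which protects cytosolic HSP70 under heat, gave 4037 in light-treated erf6-1, 2028 in untreated erf6-1, 3481 in the light-treated wild type and 2579 in the untreated wild type. Its array order matched that of ROF2 and HOP3, as did that of AT4G28480. The log2 responses of FES1A, 0.99 in erf6-1 and 0.43 in wild-type plants, were below the call as deposited. P23-1 (AT4G02450), which binds the closed form of HSP90, was at 0.66 in erf6-1 and at 0.06 in wild-type plants. The HSP90 activator AHA1 (AT3G12050) was at 0.51 in erf6-1 and at 0.28 in wild-type plants as deposited, and at 0.085 in erf6-1 and -0.048 in wild-type plants with quantile normalisation. With equal medians FES1A, P23-1 and AHA1 passed the call in erf6-1, at 1.63, 1.29 and 1.14.

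Between the genotypes, none of the 13 cochaperones was 2-fold apart after high light, against 13.6% of measured and 3.22% of bright probe sets. Their log2 differences lay between -0.61 and 0.74. Without treatment 2 of 13 were at least 2-fold lower in erf6-1, where 19.6% of measured probe sets were, and none was higher, where 23.7% were. The lower ones were HOP3 and SGT1A (AT4G23570), an HSP90 partner in disease resistance. SGT1A gave 510 in light-treated erf6-1, 384.5 in untreated erf6-1, 779 in the light-treated wild type and 930 in the untreated wild type. Unlike HOP3, it was lower in erf6-1 after high light as well, with a log2 difference of -0.61 against -1.27 without treatment. In the difference between responses HOP3 was the only 1 of the 13 at least 2-fold higher, against 21.7% of measured probe sets. None was lower, against 25.6%. With quantile normalisation 2 were higher and none lower.

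**Figure D3:**
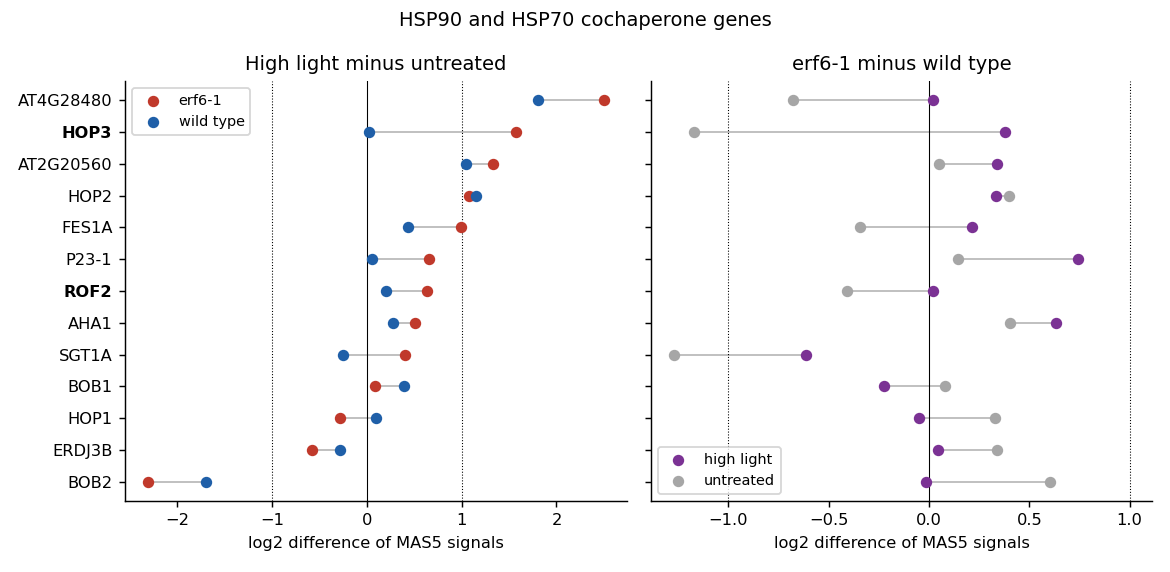
Log2 differences of MAS5 signals for the 13 measured cochaperone genes, with the light response in erf6-1 and the wild type on the left, and erf6-1 minus the wild type after high light and untreated on the right; dotted lines mark 2-fold. HOP3 has the widest span of the 13, and the span of a gene is the same quantity in both panels. Its values are 1.57 in erf6-1 and 0.02 in the wild type on the left, and 0.38 after high light and -1.17 untreated on the right.

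The isomerase family of ROF2 was also listed. Of 22 FK506-binding proteins, many of which lie in the chloroplast, 13 had a named probe set and 12 were measured. After high light 2 were at least 2-fold higher and 2 lower in erf6-1, with a median of -0.21 against -0.22 over all measured probe sets, and 1 was higher and 3 lower in the wild type, with a median of -0.76. With equal medians 3 were higher and none lower in erf6-1, with a median of 0.43. Under that scaling 5098 measured probe sets were higher and 2881 lower in erf6-1, against 2873 and 5122 as deposited. In the deposited scaling, probe sets called higher made up 16.7% of measured ones in erf6-1 and 14.3% in the wild type. Those called lower made up 29.8% in erf6-1 and 23.9% in the wild type, so the deposited erf6-1 counts lay near the background. As deposited, ROF2 and AT3G55520 were the only measured members with positive values in both genotypes, and AT3G55520 was at 1.04 in erf6-1 and 1.18 in the wild type. After high light 4 of the 12 were at least 2-fold higher in erf6-1 than in the wild type, against 6.61% of measured probe sets. None was lower. AT3G60370 had a log2 difference of 1.21, with signals of 741 in light-treated erf6-1 and 321 in the light-treated wild type. AT3G10060 had 1.10, with 605 in light-treated erf6-1 and 282 in light-treated wild-type plants. FKBP43 (AT3G12340) had at least 1.15, as its light-treated wild-type signal of 80.7 lay under the floor, and AT5G13410 had 1.02. With quantile normalisation 2 passed the call, FKBP43 at 1.42 and AT3G60370 at 1.01. AT3G10060 was then at 0.94 and AT5G13410 at 0.86. Without treatment AT4G19830 was 2.90-fold lower in erf6-1 and no other member passed the call. Over all measured probe sets 19.6% were called lower and 23.7% higher in that comparison.

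The chaperones that ROF2 and HOP3 serve were covered in part. None of the 7 HSP90 genes, of the 3 HSP100 genes or of the 21 heat shock factors listed had a named probe set, so they are not analysed here, nor is ROF1. Of 16 HSP70 and HSP110 genes 3 were measured, HSP70-2 (AT5G02490), HSP70-3 (AT3G09440) and HSP70-17 (AT4G16660). As deposited, all 3 had log2 differences below 0 after high light in both genotypes, with medians of -0.51 in erf6-1 and -0.49 in the wild type that became 0.12 and -0.06 with equal medians. HSP70-17 was at -0.51 in erf6-1 and at -1.13 in the wild type, where it passed the call as deposited only.

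Small heat shock proteins, which hold unfolding proteins until HSP70 can act, set a scale for the heat-type response in the same arrays. Of 19 listed, 11 were measured, and 7 were at least 2-fold higher after high light in each genotype, against 16.7% of measured probe sets in erf6-1 and 14.3% in the wild type. In each genotype 1 was at least 2-fold lower, AT5G47600 in erf6-1, where the light-treated signal lay under the floor, and AT4G21870 in the wild type, at -1.93, and 4 of the 11 had negative values in erf6-1. The list had medians of 1.53 in erf6-1 and 1.29 in the wild type. With quantile normalisation, where 10 were measured, 6 were higher in erf6-1 and 7 in wild-type plants. Over all measured probe sets that normalisation gave 3693 higher in erf6-1 and 3154 in wild-type plants, against 2873 and 2455 as deposited. HSP17.6C-CI (AT1G53540) gave 55782 in light-treated erf6-1, 10794 in untreated erf6-1, 52220 in the light-treated wild type and 16048 in the untreated wild type. It shares with ROF2 and HOP3 the order of the arrays, yet passed the call in both genotypes, at 2.37 in erf6-1 and 1.70 in the wild type. AT2G29500, AT1G54050 and AT1G52560 had the same order and also passed the call in both genotypes. How many of all probe sets have this order was not counted. HSA32 (AT4G21320), a gene of long-term acquired thermotolerance, was also higher in both, at 1.79 in erf6-1 and 2.22 in the wild type. In the wild type ROF2 and HOP3 were under the call, so they lay below these 7 called small heat shock proteins by definition. They were also below HSA32. Of the measured small heat shock proteins not called higher, AT4G21870 and AT2G19310 lay below ROF2 and HOP3 in the wild type, at -1.93 and -0.31. AT5G47600 did too, at 0 with both wild-type signals under the floor, while AT5G54660 lay above them, at 0.36.

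HOP3 is linked to the endoplasmic reticulum, so its folding genes were listed too. Of 18, 7 were measured, and after high light 1 was at least 2-fold higher and 1 lower in erf6-1, and 1 higher and none lower in the wild type. The shares over all measured probe sets were 16.7% higher and 29.8% lower in erf6-1, and 14.3% higher and 23.9% lower in the wild type. In erf6-1, 3 were higher and none lower with equal medians, with a median of 0.81, and 1 higher and 2 lower with quantile normalisation, with a median of 0.67. Over all measured probe sets 5098 were higher and 2881 lower with equal medians, and 3693 higher and 3609 lower with quantile normalisation. As deposited the list had a median of 0.18 in erf6-1 and of -0.31 in wild-type plants, the second turning to 0.12 with equal medians. BZIP28 (AT3G10800), a membrane-bound factor of the unfolded protein response, was 2.81-fold higher in erf6-1, and in wild-type plants, whose untreated signal lay under the floor, it was higher by at least 8.87-fold. CRT1B (CRT1b, AT1G09210), a lectin chaperone, was at -1.27 in erf6-1 and -0.41 in the wild type as deposited, and at -0.63 and 0.02 with equal medians. BZIP60 (AT1G42990), the other main factor of this response, gave 1398 in light-treated erf6-1, 752.5 in untreated erf6-1, 1326 in the light-treated wild type and 1151 in the untreated wild type, the same order as ROF2 and HOP3. DER2.1 (AT4G21810), of the Derlin family that acts in protein removal from this compartment, was at 0.90 in erf6-1 and -0.31 in the wild type as deposited, and at 1.53 and 0.11 with equal medians.

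The genes most like ROF2 and HOP3 over the 4 arrays were sought among 5318 other named probe sets with signals above the floor on every array. The measure was the root mean square difference between log2 signals, each centred on its own mean over the arrays. Closest to ROF2 was TET2 (AT2G19580), a tetraspanin, at 0.0156, with signals of 1176 in light-treated erf6-1, 770.0 in untreated erf6-1, 1188 in the light-treated wild type and 1004 in the untreated wild type. It was followed at 0.0427 to 0.0510 by AT5G48630, AT4G28400, AT1G45000, AT3G60860 and AT2G32520. Closest to HOP3 was AT4G10970 at 0.0532, with 1381 in light-treated erf6-1, 508 in untreated erf6-1, 1148 in the light-treated wild type and 1138 in the untreated wild type. AT4G27130, a translation initiation factor of the SUI1 family, SAMBA (AT1G32310), a regulator of the anaphase-promoting complex, AT1G15260, AT1G26665 and AT2G32580 followed at 0.0580 to 0.0885.

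None of these 12 genes is in the chaperone lists. ROF2 and HOP3 were 0.353 apart from each other, and on this measure HOP3 ranked 1225 by closeness to ROF2, and ROF2 416 by closeness to HOP3. Of the listed genes BZIP60 ranked closest to each, at 48 for ROF2 and 163 for HOP3, followed for ROF2 by FES1A at 217, and for HOP3 by DER2.1 at 191 and FES1A at 253. With 4 arrays many probe sets resemble any given one, and these ranks describe likeness over 4 points only.

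**Figure D4:**
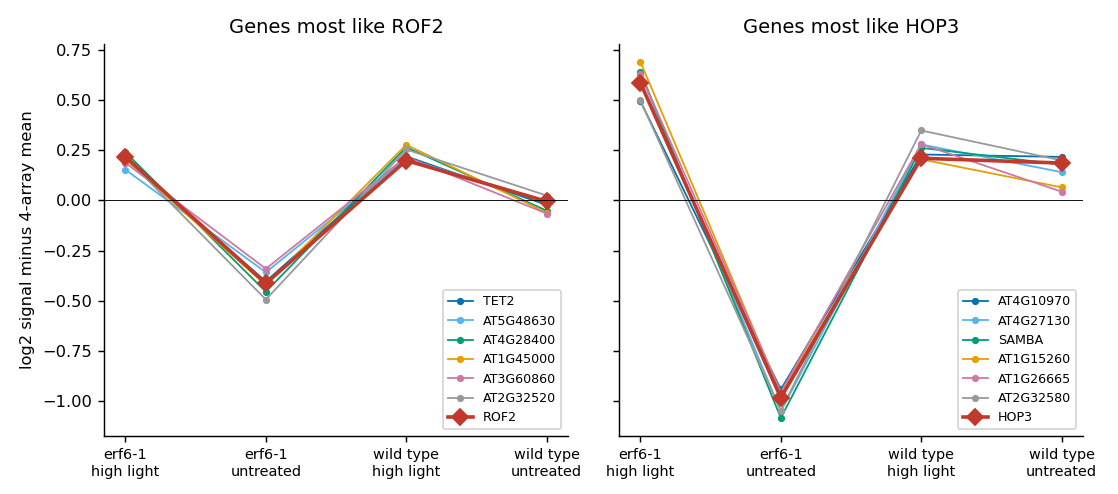
Log2 signal minus the mean over the 4 arrays for ROF2 (left, thick line) and HOP3 (right, thick line) and for the 6 named genes closest to each; points are single arrays and lines only join the points of a gene. In both panels the untreated erf6-1 array is the low point, and the drop is deeper for HOP3, whose signal there was 33.6% of its highest, against 64.5% for ROF2.

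The plant material was checked with marker genes. Of 8 listed shoot markers 4 had named probe sets, and their summed signal was 92107 in light-treated erf6-1, 133906 in untreated erf6-1, 81955 in the light-treated wild type and 199187 in the untreated wild type. Of 5 root markers 3 had named probe sets, and their sum was 18559 in light-treated erf6-1, 22632 in untreated erf6-1, 16616 in the light-treated wild type and 29570 in the untreated wild type. Both sums were lower in untreated erf6-1 than in the untreated wild type, as were ROF2 and HOP3, but the root sum is nearly all PYK10, with 21338 in untreated erf6-1 and 28679 in the untreated wild type. The other root markers went the opposite way between these arrays, EXPA7 with 852 in untreated erf6-1 and 625.5 in the untreated wild type, and EXPA18 with 442 in untreated erf6-1 and 265.5 in the untreated wild type. Whether a different share of tissues had a part in the HOP3 difference was not tested, and in whole seedlings fewer expressing cells and less RNA per cell cannot be told apart. Of 3 pollen markers 2 were named, of which AT3G28750 lay under the floor on all arrays and AT5G45880 on all but untreated erf6-1, where it gave 209.7; no seed marker was named.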

How the data were processed

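Values are linear MAS5 intensities from 4 single-channel Affymetrix arrays. The authors scaled each array with MAS5 before they deposited the intensity table, per the labels; no version is stated there. The 2% trimmed means lay between 493 and 495. A description field that speaks of early embryos is at odds with the other labels and was not used. Probe sets were named through the platform annotation (14016 listed, 13513 with 1 gene) and current RefSeq loci (13436 matched). Intensities under the pooled 30th percentile (100) were set to it and put on the log2 scale, so that differences are log2 ratios of deposited values. Calls were made at 2-fold. A gene with several measured probe sets was read from the brightest. The rule for named genes took both members, the genes of 9 lists and the 6 genes most alike to each member. Members and lists were chosen with earlier results of these data known. The calculation was tested on simulated data with large changes planted in bright probe sets and little noise. That checks the code, but not the reliability of calls near 2-fold or in dim probe sets. Alternatives were quantile normalisation, equal medians, no floor, a pseudocount of 64, other filters and a 1.5-fold call. Python 3.11.15, numpy 2.4.6, pandas 2.3.3 and scipy 1.17.1 were used. The number of arrays limits the precision.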

Additional observations from a re-analysis of the deposited data

Results flagged for a closer look

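The genotype difference had opposite signs in the 2 light conditions for both genes. For HOP3 the log2 difference of erf6-1 from the wild type was 0.38 after high light and -1.17 without treatment. For ROF2 it was 0.019 and -0.41, and the high-light value is close to 0 and was exactly 0 with quantile normalisation. Each sign rests on 1 array per group, and the difference between conditions was not tested.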

How the results depend on the processing

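Over 5 comparisons, the log2 differences of ROF2 and HOP3, the calls over all probe sets and the calls among cochaperones gave 120 values under alternatives. As deposited ROF2 had no called difference, and none of those of HOP3 changed sign or lost its call. Only quantile normalisation, equal medians and the pseudocount could have removed a HOP3 call. Its signals all lay above the floor, a 1.5-fold call is looser, and the filters bear on counts alone. The uncalled HOP3 value in the wild type ranged from -0.28 to 0.45. With equal medians the erf6-1 responses were 1.27 for ROF2, now past the call, and 2.21 for HOP3. Under that scaling 10 of the 13 cochaperones were called in erf6-1, 9 higher and 1 lower. Of all measured probe sets 7979 were called, 5098 higher and 2881 lower. The measured set was formed anew for quantile normalisation and for equal medians, so its size there need not be 17173. The ROF2 value of 0.63 passes a 1.5-fold call. With quantile normalisation 2 cochaperones were called in the wild type, and 2 in the difference between responses, as also with no filter on dim probe sets. Over all measured probe sets quantile normalisation called 6239 in the wild type and 7831 in the difference between responses. Without the filter the latter comparison called 9093 of all 22746 probe sets. With the 1.5-fold call 8 of the 13 measured cochaperones were called in erf6-1 and 3 between the genotypes after high light. Without treatment 4 were called, and 5 in the difference between responses. Of the 17173 measured probe sets it called 11068 in erf6-1, 5524 between the genotypes after high light, 10469 without treatment and 11126 in the difference between responses. Counting both directions together, in none of these was the cochaperone share above that of measured probe sets. By direction, the erf6-1 calls were 7 higher and 1 lower among cochaperones, against 4195 higher and 6873 lower among measured probe sets. On the higher side alone the cochaperone share in erf6-1 was thus the larger. Over all measured probe sets the 1.5-fold call gave 9949 in the wild type, against 6558 at 2-fold, and 5524 between the high-light genotypes, against 2336. Without a floor the last count was 4633. Among bright probe sets alone the counts were 1237 in erf6-1, 1109 in the wild type, 160 between the genotypes after high light, 642 without treatment and 818 in the difference between responses. The causes were not tested, except that bright probe sets are fewer and a lower call admits more. The higher side made up 35.9% of calls in erf6-1 as deposited, 50.6% with quantile normalisation and 63.9% with equal medians, and 37.4%, 50.6% and 60.7% in the wild type. No paired analysis was possible because each group had 1 array. Signal far above the floor does not stand in for replicates.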
